A study of Mus musculus with 6 samples.

Results

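The ISG15 conjugation machinery comprised the ubiquitin-like modifier Isg15 (G1P2 in the array's gene column), its activating enzyme Uba7 (UBE1L), its conjugating enzyme Ube2l6 (UBE2L6), its ligase Herc5 (HERC5), its protease Usp18 (USP18) and, as a further interferon-stimulated gene, Isg20 (ISG20). Members were all probes whose gene symbol was one of these names or an older alias, which gave 9 probes of 6 genes among 45281 probes with 31490 different symbols. Usp18 had 3 probes, Ube2l6 had 2, and each of the other 4 genes had 1. The samples were cultured Sertoli cells, the somatic cells that nurse germ cells in the seminiferous tubule. They came from pooled tubules of 3 week-old C57BL/6J mice that were homozygous for the Ctnnb1(tm1Mmt) allele in both treatments, and were infected at an MOI of 50 for 24 h in serum-free medium. Ad-Cre carries Cre recombinase, which removes a floxed part of this allele so that the CTNNB1 protein resists degradation, and Ad-eGFP carries a green fluorescent protein and served as control. There were 3 RNA samples for each virus, each on 1 Illumina mouse BeadChip array. The study asked which genes respond to stable CTNNB1 in Sertoli cells, but 0 arrays of cells lacking the floxed allele and given Ad-Cre were analysed here, so effects of the allele, of Cre recombinase and of the Ad-Cre virus cannot be told apart. The sources used here do not say if the 3 RNA samples of a virus were grown as separate cultures, so the p-values measure only the spread between these samples, which may be technical.

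ISG15 is a small protein that is joined to other proteins in the manner of ubiquitin. UBA7 activates it, UBE2L6 takes it over as the conjugating enzyme, a HERC family ligase directs it to target proteins, and USP18 removes it again. Genes of this pathway are induced by type I interferon through the transcription factor complex ISGF3, which holds STAT2 and IRF9, and USP18 also binds the receptor subunit IFNAR2 and dampens the interferon signal.

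Raw signals had a median of 129 to 137 across the 6 arrays, and between 20288 and 20901 probes per array were detected, meaning a detection p-value under 0.05 against the negative-control beads. Levels are given as normalized log2 intensities after background correction, and differences as log2 fold changes, Ad-Cre minus Ad-eGFP, with adjusted p-values from limma. A probe was tested if at least 3 of the 6 arrays detected it, which held for 20855 probes. The number of arrays limits the precision.

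The labels were examined first with the eGFP probe. It read 13.02 ± 0.26 (SD, n = 3) in Ad-Cre-treated cells and 14.93 ± 0.12 (SD, n = 3) in Ad-eGFP-treated cells. The probe was thus 3.77-fold lower with Ad-Cre, the direction that the labels give. Each Ad-Cre array still detected it, at a level near that of the Sertoli cell marker Wt1 there (12.84). Why cells labelled Ad-Cre gave this strong eGFP signal was not tested. Probes of Ctnnb1 differed by 0.22, 0.30 and -0.39 on the log2 scale. Where these probes lie relative to the floxed part is not given in the sources used here, so they are no check of recombination.

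All 14 Sertoli cell markers on the list were measured, and Clu, the secreted glycoprotein clusterin, was the brightest. Sox9, the transcription factor that sets Sertoli cell identity, reached a log2 intensity of 14.75 ± 0.07 (SD, n = 3) in control cells and 14.18 ± 0.01 (SD, n = 3) in Ad-Cre-treated cells. For Amh, only 1 of the 3 Ad-Cre arrays was above background, against all 3 Ad-eGFP arrays. Of the list, 9 genes fell (Sox9, Wt1, Amh, Dhh, Clu, Fshr, Inha, Cst9 and Gata1) and Ctsl was higher, with a median log2 fold change of -0.49. The summed normalized signal of the 14 was 72080, 72120 and 70750 on Ad-Cre replicates 1 to 3 and 102800, 97690 and 99230 on Ad-eGFP replicates 1 to 3. In bulk samples, fewer cells of a type and less RNA per cell cannot be told apart. The calls of Inha and Ctsl were lost when single arrays were left out: the adjusted p of Inha was 0.0529 with Ad-Cre replicate 2 left out and 0.0941, 0.103 and 0.0886 with Ad-eGFP replicates 1, 2 and 3 left out, and that of Ctsl was 0.0505 and 0.0591 with Ad-Cre replicates 1 and 2 left out and 0.0657, 0.0611 and 0.0669 with Ad-eGFP replicates 1, 2 and 3 left out. Amh reached 0.0620 and Inha 0.116 by the methods' t-test, and Inha 0.0616 with no filter. Over 14 alternatives for Inha and Ctsl and 13 for Amh the lowest adjusted p was 0.00555, 0.00315 and 0.00132. Sox9, Wt1 and Cst9 are also in the study's list of regulated genes from these arrays, so their fall is not independent evidence.

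Every member gene with a tested probe was higher with Ad-Cre. Of the 6 genes, 5 had a tested probe and each reached an adjusted p under 0.05, and the other, Herc5, was not detected on any array. Across all tested probes, 2231 (10.7%) were higher with Ad-Cre at that threshold and 4774 (22.9%) changed in either direction. The total was 3003 without Ad-Cre replicate 2 and 2926, 2831 and 2480 without Ad-eGFP replicates 1, 2 and 3. For all 8 tested member probes the lowest Ad-Cre array exceeded the highest Ad-eGFP array, which was so for 20.4% of all tested probes. The median log2 fold change was 1.05 over the 5 member genes and 0.00 over all tested probes. Of the 9 member probes, 6 were detected on all 6 arrays. A probe of Usp18 and the probe of Isg20 passed the filter only or mainly through the Ad-Cre arrays, so being tested already favoured a rise for these. Isg15 and Usp18 are also among the genes that the study listed as regulated on these same arrays, so their direction here is not independent evidence.

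**Figure D1:**
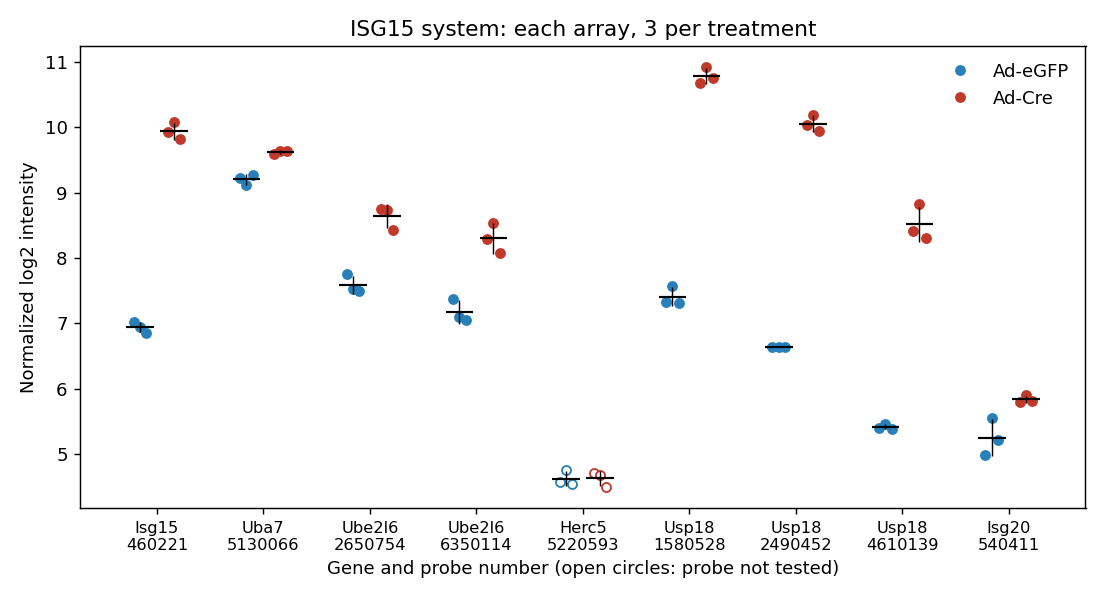
Normalized log2 intensity (vertical axis) of each of the 9 member probes (horizontal axis) on each array, with Ad-eGFP in blue and Ad-Cre in red, the horizontal bar at the mean and the vertical bar spanning 1 SD on either side (n = 3). The treatments are apart for all 8 tested probes, with a log2 fold change of 0.42 for Uba7 and of 3.37 for the brightest probe of Usp18, and overlap for the untested probe of Herc5, drawn as open circles.

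Isg15 encodes the modifier itself. Its log2 intensity was 9.92, 10.08 and 9.82 on Ad-Cre replicates 1, 2 and 3, and 7.01, 6.95 and 6.86 on Ad-eGFP replicates 1, 2 and 3. The Ad-Cre arrays were all high, the Ad-eGFP arrays all low, and the gap between them was far wider than the spread within either treatment. The means were 9.94 ± 0.13 (SD, n = 3) and 6.94 ± 0.08 (SD, n = 3), which gave a rise of 3.00 on the log2 scale (standard error 0.09, adjusted p = 1.45e-05 from limma), or 8.0-fold. The probe was detected on all 6 arrays, so the modifier's transcript was also above background with Ad-eGFP. Without background correction, which leaves the background in every value, the log2 fold change was 2.29. The two-sided exact permutation test over 3 against 3 arrays gave p = 0.1, the smallest value that it can give, for Isg15 and for each of the other tested member probes.

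Uba7 encodes the E1 enzyme that activates ISG15. Its log2 intensity was 9.59, 9.64 and 9.64 on the Ad-Cre arrays and 9.23, 9.11 and 9.27 on the Ad-eGFP arrays, in the order of replicates 1 to 3. Values within a treatment lay close together, and the treatments did not overlap. The Ad-eGFP mean was 9.20 ± 0.08 (SD, n = 3) and the Ad-Cre mean 9.62 ± 0.03 (SD, n = 3), a rise of 0.42 on the log2 scale (standard error 0.08, adjusted p = 0.00881), or 1.34-fold. The E1 enzymes of ubiquitin and of other ubiquitin-like modifiers were set beside it. Of 9 such genes, 8 were tested and 0 reached the threshold, by limma, with a median log2 fold change of 0.04.

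Ube2l6, the E2 enzyme that carries activated ISG15, was measured by 2 probes. For the brighter, 2650754, the log2 intensity was 8.75, 8.74 and 8.43 on Ad-Cre replicates 1 to 3 and 7.75, 7.52 and 7.49 on Ad-eGFP replicates 1 to 3. For probe 6350114 it was 8.30, 8.54 and 8.07 with Ad-Cre and 7.38, 7.10 and 7.04 with Ad-eGFP. In both probes the lowest Ad-Cre array was replicate 3 and the highest Ad-eGFP array was replicate 1, and these still did not meet. The brighter probe had means of 8.64 ± 0.18 (SD, n = 3) and 7.59 ± 0.14 (SD, n = 3) and rose by 1.05 (standard error 0.12, adjusted p = 0.00154). The other gave 1.13 (standard error 0.14, adjusted p = 0.00240), so the probes gave 2.07-fold and 2.18-fold.

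Among 31 other E2 enzymes, 27 were tested. Beside 10.7% of all tested probes that rose and 22.9% that changed in either direction, 5 of these 27 rose and 2 fell. Their median log2 fold change was 0.14. The largest rises were those of Ube2q2 by 0.67, Ube2j1 by 0.59 and Cdc34 by 0.58, and Ube2h fell by 0.40. These 3 rises were 0.62, 0.31 and 0.56 without background correction. Cdc34 and Ube2h act with ubiquitin. Each of these changes was smaller than that of Ube2l6. For Ube2h all 3 probes fell, whereas another probe of Cdc34 did not reach the threshold. By the methods' t-test the adjusted p of Ube2j1 was 0.0548 and that of Ube2q2 0.0549, while the lowest values over 14 alternatives were 0.00500 and 6.39e-04. The count of risen E2 genes was 3 when Ad-Cre replicate 2, Ad-eGFP replicate 2 or Ad-eGFP replicate 3 was left out, 3 by the methods' t-test, and 11 without Ad-Cre replicate 3 or with array weights. That of fallen genes was 1 when any Ad-eGFP replicate was left out. Ube2l3, the closest relative of Ube2l6 and an E2 for ubiquitin, differed by 0.13 (standard error 0.07, adjusted p = 0.192).

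Herc5, the member that stands for the E3 ligase, was measured by 1 probe. Its log2 intensity was 4.71, 4.69 and 4.49 on the Ad-Cre arrays and 4.58, 4.75 and 4.54 on the Ad-eGFP arrays, in the order of replicates. No array detected it, with detection p-values between 0.441 and 0.932, so no fold change is given. RefSeq lists Herc5 as a synonym of Herc6, the mouse gene known to act as the main ISG15 ligase, so this single probe stands for both names. Other ligases reported to join ISG15 were better measured. Trim25, which is itself induced by interferon in many cells, rose by 0.39 (standard error 0.08, adjusted p = 0.0140), and its dimmer probe gave 0.22 (adjusted p = 0.501). For Trim25 the adjusted p rose to 0.0505 when Ad-Cre replicate 2 was left out and to 0.0563 when Ad-eGFP replicate 1 was, from a lowest value of 0.00165 over 14 alternatives. Arih1 differed by 0.05 (adjusted p = 0.621).

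Usp18, the protease that takes ISG15 off its targets, had 3 probes. For the brightest, 1580528, the log2 intensity was 10.67, 10.92 and 10.75 on Ad-Cre replicates 1 to 3 and 7.33, 7.57 and 7.31 on Ad-eGFP replicates 1 to 3. For probe 2490452 it was 10.03, 10.19 and 9.94 with Ad-Cre and 6.64, 6.65 and 6.63 with Ad-eGFP. Replicate 2 was the highest Ad-Cre array in both, and the Ad-eGFP values of probe 2490452 were nearly identical. The brightest probe had means of 10.78 ± 0.12 (SD, n = 3) and 7.41 ± 0.14 (SD, n = 3) and rose by 3.37 (standard error 0.10, adjusted p = 1.45e-05). Probe 2490452 gave 3.42 (standard error 0.09, adjusted p = 9.24e-06), so these probes rose 10.4-fold and 10.7-fold.

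Probe 4610139 of Usp18 was not detected on any Ad-eGFP array. Its log2 intensity was 8.41, 8.82 and 8.31 on the Ad-Cre arrays and 5.41, 5.46 and 5.39 on the Ad-eGFP arrays, in the order of replicates. The last 3 values lie at background, so the change is a bound, at least 8.46-fold (adjusted p = 5.59e-05). This bound holds for the main background correction. The probe's log2 fold change was 1.73 without it and 2.38 with an offset of 50, where the brightest probe gave 2.79 and 3.14.

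Other proteases that can act on ISG15 were less changed. Of Usp2, Usp5, Usp13, Usp14 and Usp21, 4 were tested by their brightest probe and 0 reached the threshold, with log2 fold changes of 0.10 for Usp2, -0.06 for Usp5, 0.14 for Usp14 and -0.24 for Usp21, and a median of 0.02. Usp13 was not detected on any array. A dimmer probe of Usp2 was higher by 0.40 (adjusted p = 0.0356), so the probes of that gene disagreed on the call.

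Isg20 encodes an exonuclease that degrades RNA and is induced by interferon; it is not part of the conjugation cascade. Its log2 intensity was 5.80, 5.90 and 5.81 on Ad-Cre replicates 1 to 3 and 4.99, 5.56 and 5.22 on Ad-eGFP replicates 1 to 3. All 3 Ad-Cre arrays detected the probe but, with Ad-eGFP, only replicate 2 did, which was also the highest of that treatment. The probe rose by 0.58 (standard error 0.14, adjusted p = 0.0252), and by 0.21 without background correction. As 2 of the 3 Ad-eGFP values were not above background, the size of this rise is uncertain. The adjusted p was 0.0580 and 0.0794 with Ad-Cre replicates 1 and 2 left out, 0.0590 and 0.0814 with Ad-eGFP replicates 1 and 3 left out, and 0.0998 by the methods' t-test after Benjamini-Hochberg adjustment (unadjusted p = 0.0255), within a range from 0.00985 to 0.0998 over 14 alternatives. Isg20 was thus the member closest to the detection limit among those tested and the member whose call depended on single arrays.

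Type I interferon signalling, a known inducer of this pathway, was examined only through RNA levels of its genes. Whether that signal acted in these cells was not tested. The list held 10 genes of the type I interferon receptor, its kinases, ISGF3 and further interferon regulatory factors (Irf1, Irf3 and Irf7). Of 9 tested, 3 rose and 3 fell, with a median log2 fold change of -0.12. The risen genes were Irf7, Stat2 and Irf9, all transcription factors of the interferon response. Stat2 had a log2 intensity of 7.84 with Ad-Cre and 6.75 with Ad-eGFP, and rose by 1.09 (standard error 0.09, adjusted p = 5.65e-04), and Irf9 rose by 1.04 and by 1.15 in its 2 probes. Without background correction Stat2 rose by 0.67, and Irf9 by 0.93 in its brighter probe. Irf7 was not detected with Ad-eGFP and was at least 2.73-fold higher with Ad-Cre (adjusted p = 1.78e-04); it was tested only because of the Ad-Cre arrays, which favoured a rise. Its log2 fold change was 0.94 without background correction and 1.33 with an offset of 50.

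The fallen genes of this list changed less. Irf3, which drives interferon genes on sensing of viral nucleic acid, fell by 0.39 (adjusted p = 0.0104), the receptor kinase Tyk2 by 0.33 (adjusted p = 0.0165) and Irf1 by 0.24 (adjusted p = 0.0437). The adjusted p of Irf3 was 0.0513 without Ad-eGFP replicate 3, and that of Tyk2 was 0.0616 and 0.0751 without Ad-eGFP replicates 1 and 3 and 0.0507 when Ad-Cre replicate 2 was left out, against lowest values over 14 alternatives of 9.63e-04 and 0.00352. Irf1 lost its call under 8 of 14 alternatives: 0.170 with median scaling, 0.0689 with no filter, 0.0881 with the replicate number as a block, 0.133, 0.137 and 0.111 when Ad-eGFP replicates 1, 2 and 3 were left out, and 0.0802 and 0.122 when Ad-Cre replicates 1 and 2 were. Its lowest value was 0.0136. The receptor subunit Ifnar2, to which USP18 binds, differed by -0.13 (adjusted p = 0.442). Of 19 interferon genes, 18 had a probe, 2 were tested and 0 reached the threshold, by limma. Ifnb1, the interferon that many infected cells make first, was not detected on any array.

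Other interferon-stimulated genes were compared as a list of 29, of which 27 had a probe. Of 20 tested, 18 rose and 0 fell, with a median log2 fold change of 1.13, or 1.09 with undetected probes at their bound. Oasl1 and Mx2 passed the filter only through the Ad-Cre arrays and Cxcl10 mainly so, which favoured a rise for these 3. The chemokine gene Cxcl10 rose by 3.96, and Rsad2, which encodes the antiviral enzyme viperin, by 3.85. Oasl1, an OAS-like gene, was at least 6.24-fold higher, since no Ad-eGFP array detected it. Only 1 Ad-eGFP array detected Cxcl10. Without background correction, Cxcl10 rose by 2.49, Rsad2 by 2.82 and Oasl1 by 1.51, and with an offset of 50 Oasl1 rose by 2.15, so its bound holds only for the main correction. Isg15 and Usp18 lay within the range of this list. Cxcl10, Ifit3, Ifitm3, Igtp, Oasl2 and Eif2ak2 of this list, like Irf9, are in the study's own list of regulated genes, so their direction is not independent evidence.

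Of the 3 profiles nearest to Isg15 over the 6 arrays, 2 were those of Ifit3 and Usp18. The measure was the root mean square difference of log2 intensities after each probe's mean was taken off, over 15132 other profiles, and it was 0.21 for each of them. The nearest to Usp18 included Isg15 and Rsad2, at 0.21 and 0.26. In both cases the other was Oasl1, whose Ad-eGFP values lie at background, so it is given no distance or place. The measure takes in the difference between treatments as well as the spread within them.

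**Figure D2:**
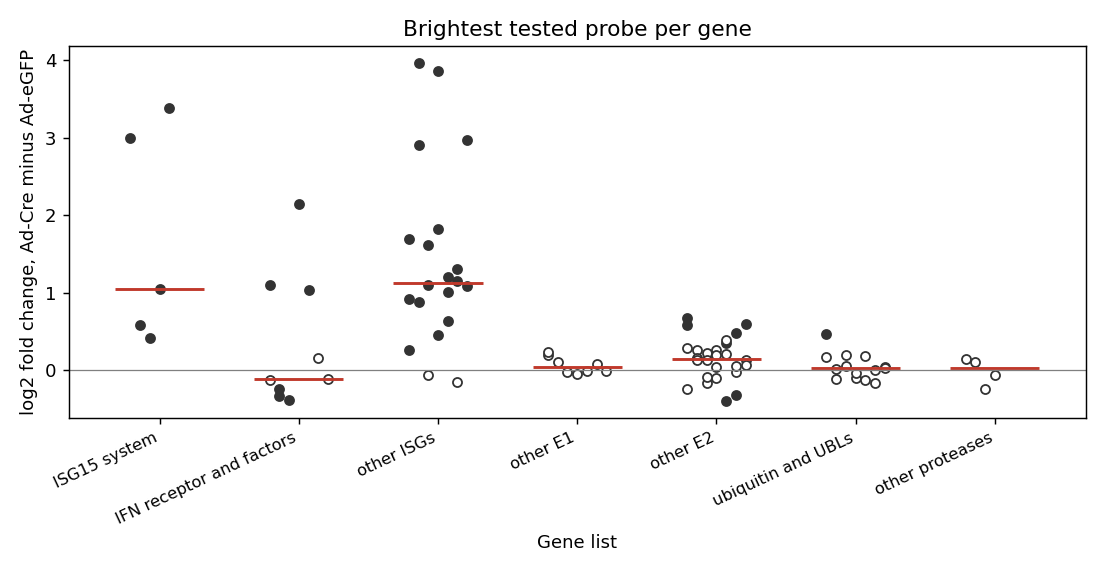
Log2 fold change (vertical axis, Ad-Cre minus Ad-eGFP) of the brightest tested probe of each gene in 7 gene lists (horizontal axis), with filled circles for an adjusted p under 0.05 from limma and red lines at the medians. The members and the other interferon-stimulated genes have medians of 1.05 and 1.13, and the other E1 enzymes, the other E2 enzymes and the ubiquitin-like modifiers have medians of 0.04, 0.14 and 0.02; genes not detected with Ad-eGFP are drawn at their fitted value.

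Ubiquitin and the ubiquitin-like modifiers other than ISG15 were nearly level between treatments. Of 16 genes, 14 were tested, and Atg12, whose product is conjugated during autophagy, was the 1 that rose, by 0.46 (standard error 0.08, adjusted p = 0.00941), with a median of 0.02 over the list. Genes whose proteins were reported as ISG15 substrates were mixed. Of 18, 14 were tested, 6 rose and 1 fell, with a median log2 fold change of 0.22. Ddx58 rose by 1.61, Eif2ak2 by 1.15 and the cell cycle gene Ccnd1 by 1.05, or by 1.02, 1.07 and 1.01 without background correction, and the fallen gene was Irf3, whose call is described above; without Ad-Cre replicate 1 the count of fallen genes was 2. Ddx58 and Eif2ak2 are also on the list of interferon-stimulated genes, and Ccnd1, a known CTNNB1 target, is also in the study's own list.

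Because 5 of the 6 member genes rose, the 250 bases before their starts were searched for short motifs on both strands in the RefSeq promoter table (GRCm38.p6). The table held 7 windows of 5 member genes (Isg15, Uba7, Ube2l6, Isg20 and, for Herc5, Herc6). It held none of Usp18, so 4 of the 5 risen genes were searched. The interferon response element core GAAANNGAA was found in 1 window, that of Isg15, and in 7.13% of all 32851 windows. The STAT motif TTCNNNGAA was found in 1 of the 3 windows of Isg20 and in 7.02% of all, and the TCF/LEF motif CTTTGAT in 0 member windows and in 3.21% of all. A match is a description of the sequence, and no match says only that these letters are not in the window. The last 150 bases before the start of Isg15, on the minus strand at chr4:156200819-156200968, are shown because they hold 3 overlapping matches of GAAANNGAA, which are in capitals.
Isg15: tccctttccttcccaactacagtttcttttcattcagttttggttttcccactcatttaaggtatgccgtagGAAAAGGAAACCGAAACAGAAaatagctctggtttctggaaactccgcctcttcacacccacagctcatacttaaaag

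Markers of other cell types were read beside these results. Of 14 macrophage and leukocyte markers, 9 were tested, 1 rose and 2 fell, with a median log2 fold change of -0.02. Ptprc, Itgam, Itgal and Itgb2 were not detected on any array. The macrophage markers Mrc1, Cd68 and Cd14 were detected on all 6 arrays. Their log2 intensities were 8.70, 7.75 and 6.73 with Ad-Cre and 8.72, 7.98 and 6.77 with Ad-eGFP. Emr1 was detected on 3 Ad-Cre and 2 Ad-eGFP arrays. The summed normalized signal of the 9 tested markers was 9380, 8996 and 9176 on Ad-Cre replicates 1 to 3. It was 11290, 11050 and 11530 on Ad-eGFP replicates 1 to 3. Lyz1, which had the brightest probe, fell by 0.32 (adjusted p = 0.0136) and Lyz2 by 0.35 (adjusted p = 0.0276), whereas Csf1r, the receptor of a macrophage growth factor, was not detected with Ad-eGFP and was at least 1.54-fold higher with Ad-Cre. It too was tested only because of the Ad-Cre arrays, its log2 fold change was 0.36 without background correction and 0.56 with an offset of 50, and the count of risen genes was 0 with the strict detection filter. The calls of the lysozyme genes were not stable. The count of fallen genes on this list was 0 with median scaling, 1 with the replicate number as a block and by the methods' t-test, 1 when Ad-Cre replicate 2 was left out, and 0, 1 and 0 when Ad-eGFP replicates 1, 2 and 3 were. Germ cell, Leydig cell, peritubular myoid and endothelial markers had 5, 2, 5 and 2 tested genes, of which 0 reached the threshold by the brightest probe in limma's test. The genes with the brightest probes were Dazl, Cyp11a1, Acta2 and Pecam1, with log2 fold changes of -0.03, -0.28, 0.04 and -0.18. The list medians were 0.24, -0.19, 0.28 and -0.07. The summed signal of the peritubular myoid genes was 61020, 59770 and 59540 on the Ad-Cre arrays and 57850, 56240 and 57850 on the Ad-eGFP arrays, so it was higher on each Ad-Cre array. For the Leydig cell genes it was 473.6, 407.4 and 420.6 with Ad-Cre and 508.6, 492.4 and 508.8 with Ad-eGFP, lower on each Ad-Cre array. For the germ cell and endothelial genes the arrays of the 2 viruses overlapped. A dimmer probe of Dazl fell by 0.56 (adjusted p = 0.00726) and a dimmer probe of Cyp11a1 was higher by 0.53 (adjusted p = 0.0263). Among the leukocyte markers, a dimmer probe of Cd3e was not detected with Ad-Cre and was at least 1.12-fold lower there (adjusted p = 0.0370), while its brighter probe differed by 0.12 (adjusted p = 0.515). The part of these other cells in the results was not tested.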

How the data were processed

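The authors deposited raw probe intensities for 6 arrays, neither normalized nor background-corrected, with a detection p-value and a bead number for each probe. The deposited detection p-value compares a probe with the negative-control beads. A deposited table of the authors' own comparison (means, fold changes and p-values) was not used, nor were 6 per-sample columns of bead SD. In R 4.3.3 with limma 3.58.1, neqc corrected the background by normexp (with negative controls estimated through the detection p-values), added an offset of 16, quantile-normalized the arrays and took log2. Background correction and the offset set the size of log2 fold changes of dim probes. Probes detected at p under 0.05 on at least 3 arrays were compared with lmFit and eBayes, two-sided, with Benjamini-Hochberg adjustment over all 20855. The brightest tested probe stood for a gene. Where no array of a treatment detected a probe, the mean of the other treatment was divided by a floor, and the result is a lower bound; on each array the floor was the probe's own signal or, if higher, the dimmest detected probe. The code was tested on simulated data.

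Members and lists were chosen with earlier results of these data known. Lists were described by counts and medians, without a test. The rule for named genes took all member probes, eGFP and Ctnnb1, and every gene of lists of up to 6 genes. It also took the 3 largest rises and falls past the threshold of longer lists, and Ube2l3, Irf9, Stat2, Irf7, Ifnar2, Ifnb1 and Ccnd1. Further, it took the brightest and called markers, and the 3 profiles nearest to Isg15 and to Usp18. Undetected markers were named in addition, as were the detected macrophage markers Mrc1, Cd68, Cd14 and Emr1. Some genes that this rule covers are not reported here. Symbols were matched by current symbol, older alias or unique RefSeq synonym. The alternatives were no background correction, median scaling, an offset of 50, array weights, the replicate number as a block, a plain t-test with pooled variance and Benjamini-Hochberg adjustment (called the methods' t-test, since the study names a t-test; the empirical Bayes algorithm it also names was not applied), no filter, a filter that asked all 6 arrays for a detection p-value under 0.01, each array left out, and averaging the probes of a gene.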

Additional observations from a re-analysis of the deposited data

How the results depend on the processing

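Across 15 alternatives, Isg15, Usp18, Uba7 and Ube2l6 kept their direction and an adjusted p under 0.05, with log2 fold changes from 2.29 to 3.09, 2.79 to 3.46, 0.37 to 0.46 and 0.77 to 1.16. Isg20 kept its direction in 14 and lost its call in 5, and it had no value under the strict detection filter, which it did not pass. The count of member genes past the threshold was 5, or 4 with the strict filter and by the methods' t-test, and from 4 to 5 without single arrays. The total count of 4774 probes ranged from 2480 to 5663 without single arrays, where fewer samples were fitted, and from 3220 by the methods' t-test to 7082 with array weights. The methods' t-test at the study's own thresholds on unadjusted p and fold change gave 1622 probes and 3 member genes (Isg15, Usp18 and Ube2l6). With the replicate block, 4162 probes and 5 member genes passed. The correlation of deviations of same-numbered arrays was 0.157, 0.055 and 0.041, against values from -0.099 to 0.041 for arrays with different numbers. For each array the same-numbered value was the highest, with a tie for Ad-Cre replicate 3, which reached 0.041 with Ad-eGFP replicate 2 as well. All values were low, so the main fit did not pair the samples. Whether the numbers mark pairs is not known. The alternatives for gene lists and other named genes were added after seeing the data, and among these the count of risen genes was between 14 and 18 for other interferon-stimulated genes and between 3 and 11 for E2 enzymes, and that of fallen Sertoli cell markers between 7 and 11. Signal over background limits Isg20, Herc5 and 1 probe of Usp18, and 3 arrays a treatment limit all comparisons.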

Other observations

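The large HERC proteins and the smaller HERC3 and HERC4 are relatives of the ISG15 ligase. By their brightest probes, Herc1, Herc2, Herc3 and Herc4 had log2 fold changes of 0.07, -0.22, -0.19 and -0.22, and 0 of the 4 reached an adjusted p under 0.05 in limma's test. Dimmer probes did for Herc1, which was higher by 0.25 (adjusted p = 0.0398), and for Herc4, which fell by 0.48 (adjusted p = 0.0174), so the probes of these genes disagreed. The brightest probe of Herc3 was detected on only 1 Ad-Cre and 2 Ad-eGFP arrays, so the size of its difference is uncertain.

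Of 5 relatives of Isg20 with a like exonuclease fold, all were tested and 2 rose, with a median log2 fold change of -0.05 over the list. Aen, a p53-induced nuclease, rose by 0.86 (standard error 0.08, adjusted p = 8.46e-04) in its brightest probe, while its other probes gave 0.35 and 0.29 without reaching the threshold. The rise of the brightest Aen probe was 0.47 without background correction. Rexo2, a mitochondrial oligoribonuclease, rose by 0.43 (adjusted p = 0.0109), and its adjusted p was 0.0511 without Ad-eGFP replicate 3, in a range from 0.00137 to 0.0511 over 14 alternatives. Isg20l2, Rexo1 and Rexo4 gave -0.13, -0.17 and -0.05, none past the threshold.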
